A study of Mus musculus with 20 samples.

Results

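The genes described are those of the T cell receptor complex and of CD8, with the proteins that carry the signal inward from them. They are Cd3e, Cd3d, Cd3g and Cd247, which encode the signalling chains of the receptor, Cd8a and Cd8b1, which encode the chains of the co-receptor, and Lck, Zap70 and Lat, which encode 2 kinases and an adaptor. These 9 of 20886 genes with a named probe were chosen by symbol, and the brightest probe of each was used. Of the 9, 8 passed the filter on dim probes, under which 8057 genes were tested.

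The arrays hold RNA of grafted CD8+ effector T cells from 4 sites in a mouse model of lethal acute graft-versus-host disease: liver, lung, small intestine and peripheral blood, which is the comparison site for the 3 organs. Every site has 5 arrays, one on each of 5 slides, which makes 20 in all. Recipients at all 4 sites were m-act OVA females on the C57Bl/6 background, aged 8 to 16 weeks, named C57Bl/6-Tg(CAG-OVA)-916Jen/J in the labels, in which the CAG promoter, active in most tissues, drives ovalbumin. They received 11 Gy of irradiation and then bone marrow cells and splenocytes of OT-I mice, named C57BL/6-Tg(TcraTcrb) 1100Mjb/J, whose T cells carry 1 transgenic receptor for an ovalbumin peptide. The grafted CD8+ T cells were CD45.1, whereas the other graft cells and the recipients carried CD45.2. On day 4 the cells were retrieved by magnetic selection with an antibody to CD45.1. All 4 groups therefore share the donor, the recipient strain, the irradiation and the selection, and no group of T cells outside a recipient was analysed here. Which animal or animals gave an array is not in the labels. The p-values below therefore rest on the scatter among arrays, which may be technical, and with 5 arrays a site the precision is limited.

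A T cell receptor recognises peptide on a major histocompatibility molecule but has almost no cytoplasmic part of its own. The CD3 chains and the zeta chain encoded by Cd247 carry the activation motifs that are phosphorylated after binding. CD8 binds class I molecules and brings the kinase Lck to the complex, Lck phosphorylates the motifs, Zap70 docks on them, and Zap70 then phosphorylates Lat, on which the downstream signalling complexes assemble. Most of these genes are used by nearly all T cells, whereas Cd8a and Cd8b1 mark the cytotoxic lineage. In a sorted sample of T cells their summed signal is often read as a gauge of how much of the RNA is T cell RNA. Fewer T cells on an array and less of these RNAs in each cell cannot be told apart here.

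The promoters of the 3 CD3 genes and of Cd8a are shown because the levels of these genes were correlated over the arrays and because the CD3 genes are neighbours. RefSeq's promoter table, build GRCm38.p6, matched 8 of the 9 genes with 11 windows, each of 300 bases around a start, and Cd8b1 was not matched. Cd3g, Cd3d and Cd3e lie beside each other on chromosome 9, and the starts of Cd3g and Cd3d face away from each other at a distance of 1355 bases. Capitals mark E-boxes, the motif CANNTG, which reads the same on both strands and which E proteins of lymphocytes bind.
Cd3g, chr9:44980382-44980681, minus strand: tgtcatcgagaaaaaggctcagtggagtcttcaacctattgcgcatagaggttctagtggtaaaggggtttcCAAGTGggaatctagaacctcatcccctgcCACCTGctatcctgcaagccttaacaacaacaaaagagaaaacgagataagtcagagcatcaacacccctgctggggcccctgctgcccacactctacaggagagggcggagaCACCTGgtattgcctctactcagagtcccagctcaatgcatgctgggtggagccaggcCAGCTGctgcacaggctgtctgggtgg
Cd3d, chr9:44981536-44981835, plus strand: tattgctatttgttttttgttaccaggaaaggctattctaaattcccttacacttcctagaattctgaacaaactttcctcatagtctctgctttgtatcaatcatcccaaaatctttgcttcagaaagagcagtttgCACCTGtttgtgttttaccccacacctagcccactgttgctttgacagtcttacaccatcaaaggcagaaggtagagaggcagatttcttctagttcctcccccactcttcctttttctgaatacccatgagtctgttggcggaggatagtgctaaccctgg
Cd3e, chr9:45009562-45009861, minus strand: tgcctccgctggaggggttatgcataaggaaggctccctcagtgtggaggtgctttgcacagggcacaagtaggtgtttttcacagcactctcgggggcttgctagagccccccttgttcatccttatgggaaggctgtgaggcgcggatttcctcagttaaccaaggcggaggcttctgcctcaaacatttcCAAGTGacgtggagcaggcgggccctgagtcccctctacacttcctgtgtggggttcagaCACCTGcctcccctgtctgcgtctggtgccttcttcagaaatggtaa
Cd8a, chr6:71373177-71373476, plus strand: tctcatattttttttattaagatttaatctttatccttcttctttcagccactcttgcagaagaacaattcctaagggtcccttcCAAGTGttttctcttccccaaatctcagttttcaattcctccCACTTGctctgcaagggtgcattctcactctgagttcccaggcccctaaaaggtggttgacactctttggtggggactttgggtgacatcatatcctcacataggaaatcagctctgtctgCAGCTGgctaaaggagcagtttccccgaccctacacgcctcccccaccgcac

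These 4 windows held 4 E-boxes in Cd3g, 1 in Cd3d, 2 in Cd3e and 3 in Cd8a. All 8 matched genes had at least 1 E-box in a window, a motif that 72.3% of 32851 promoters of the same length also held. The letters of a TATA box, TATAAA or its reverse complement TTTATA, were in a window of 0 of the 8 genes, against 13.6% of all promoters. The core letters TGTGGT of the RUNX motif, or ACCACA, were found for 3 of the 8 genes (Zap70, Lck and Lat), against 16.8% of all promoters. The ETS core CCGGAA, or TTCCGG, was found for Zap70 alone, against 14.9%. The GATA core AGATAA, or TTATCT, was found for Cd3g alone, against 11.2%. Such a match describes the letters in the window and does not show that a factor binds there. A gene was counted if any of its windows matched, and the 8 genes had 11 windows. The percentages are shares of single windows, so the gene counts and the percentages are not on the same footing.

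Levels are given as log2 signal over the 75th percentile of the same array's spots, so a difference of 1 between sites is a factor of 2 in scaled signal. Levels of different genes come from different probes and are not compared with each other. The signal at the 75th percentile lay between 823.1 and 2845.2 on the 20 arrays, and 23.2% to 39.37% of probes were well above background. On Paneth cell and plasma cell markers the arrays labelled liver 5 and small intestine 5 stood apart from the others of their site, as shown further on. Both are kept in the site means, and the counts of calls are also given without them. Differences between sites were tested with limma over all 20 arrays. A call needs an adjusted p under 0.05 after Benjamini-Hochberg adjustment over the 8057 genes. The fit estimates 1 spread per gene from all 4 sites, so a gene has the same SE in every comparison. The 8 tested genes scattered most in small intestine. The SD of Cd3e was 0.77 there, 0.26 in liver, 0.31 in lung and 0.19 in blood. The SEs and p-values thus carry that scatter into comparisons without small intestine, and may understate it in those with it.

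None of the 8 tested genes was called in any of the 6 comparisons between sites, or in the F-test over the 4 sites. Between liver and blood 0 of 8 were called, where 0% of all tested genes were called and 2.79% had an unadjusted p under 0.05. Between lung and blood 0 of 8 were called, against 0.819% of all genes. Between small intestine and blood 0 of 8 were called, against 10.8% of all genes, a share that was 0% without small intestine 2. The counts were 0 of 8 for lung against liver (0.285% of all genes), 0 of 8 for small intestine against liver (0%) and 0 of 8 for small intestine against lung (0.149%). The F-test called 0 of 8, against 0.757% of all genes. At an unadjusted p under 0.05 there was 1 gene, Cd8b1, for small intestine against blood, where 32.8% of all genes lay under that limit. For small intestine against liver there were 5, Cd3e, Cd3g, Cd8b1, Zap70 and Lat, where 22.0% of all genes did, and in the other 4 comparisons there were 0, although 33.8% of all genes lay under it between lung and blood, 14.8% between lung and liver and 8.24% between small intestine and lung.

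**Figure D1:**
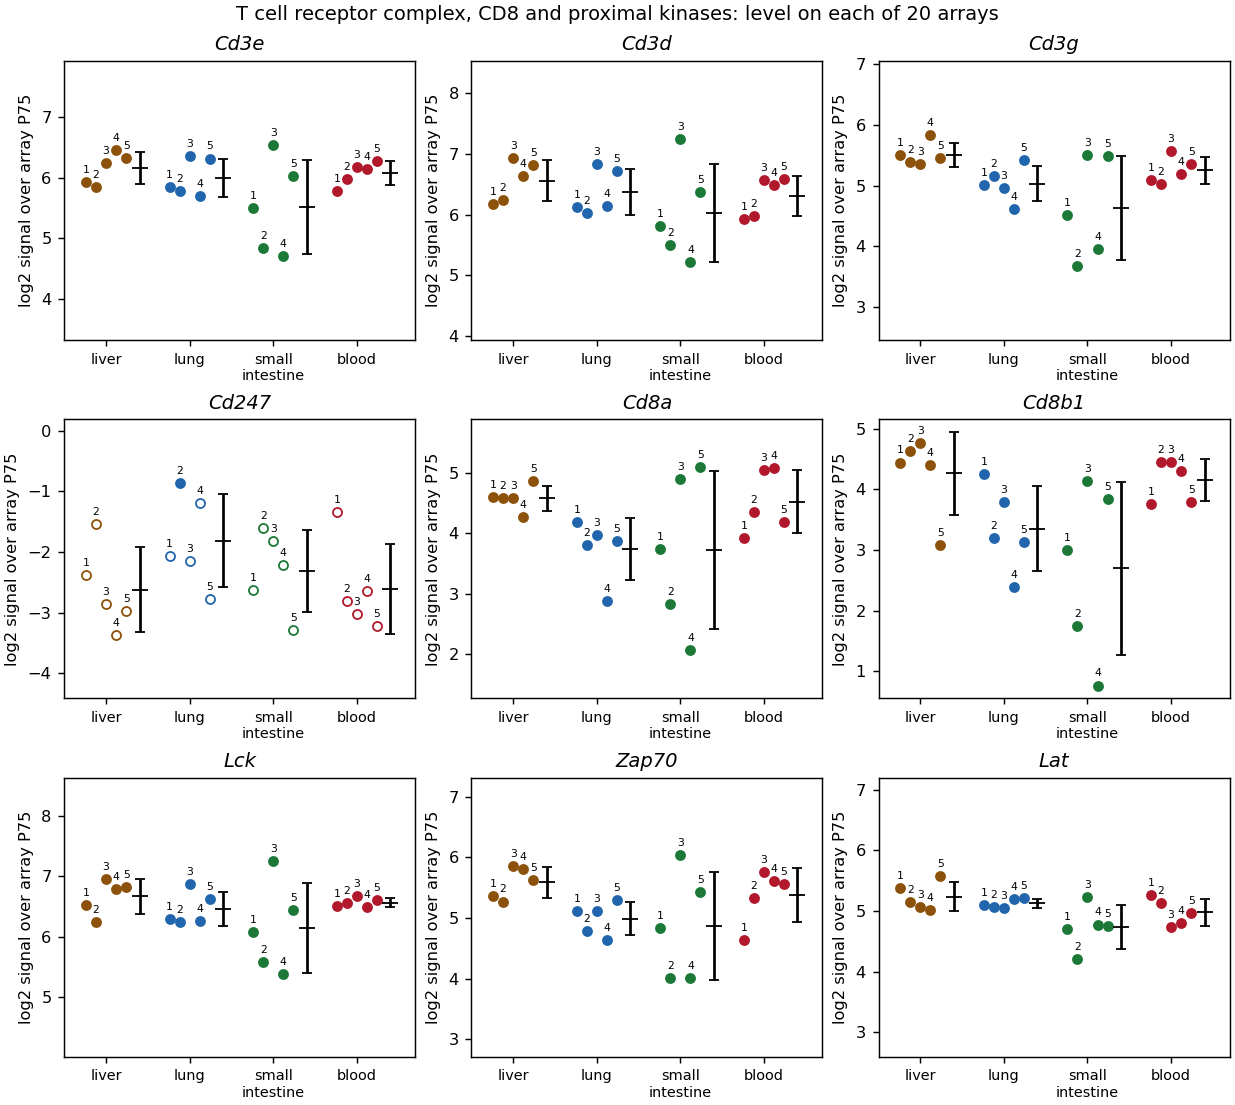
Log2 signal over the array's 75th percentile (y axis) of the 9 genes on every array, by site (x axis), numbered by replicate, with the mean and SD of 5 arrays in black; each panel spans the same log2 range. Open circles mark probes not well above background. Small intestine 2 and 4 lie low for all 8 genes with filled circles apart from Lat, where small intestine 4 lies among the others, and Cd247 has 1 filled circle, lung 2.

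Among the CD3 chains, Cd3e, whose epsilon chain is part of both CD3 dimers, had the same order of site means as most of the set, liver, blood, lung and small intestine, from high to low. Cd3e was at 5.93, 5.84, 6.25, 6.46 and 6.33 in liver 1 to 5, and at 5.84, 5.78, 6.35, 5.70 and 6.32 in lung 1 to 5. It was at 5.50, 4.84, 6.53, 4.71 and 6.02 in small intestine 1 to 5, and at 5.78, 5.98, 6.17, 6.15 and 6.28 in blood 1 to 5. Small intestine 1, 2 and 4 lay below every blood array and small intestine 3 above every one, so the groups overlapped. The small intestine mean was 5.52 ± 0.77 (SD, n = 5), against 6.07 ± 0.19 in blood, a log2 difference of -0.55 ± 0.29 (SE, limma adjusted p = 0.189). Lower values were found in small intestine on 4 of 5 slides. The differences from blood were 0.09 ± 0.29 for liver and -0.07 ± 0.29 for lung.

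Cd3d, which encodes the delta chain that pairs with epsilon, was at 6.17, 6.24, 6.93, 6.64 and 6.82 in liver and at 6.13, 6.03, 6.83, 6.14 and 6.72 in lung. In small intestine it was at 5.81, 5.50, 7.25, 5.22 and 6.37, and in blood at 5.94, 5.97, 6.57, 6.49 and 6.60. Its highest and its lowest array of all 20 were both from small intestine, arrays 3 and 4. Liver exceeded blood on 5 of 5 slides, with a log2 difference of 0.25 ± 0.32 (limma adjusted p = 0.997). The small intestine difference from blood was -0.28 ± 0.32 (limma adjusted p = 0.484). The lung difference was 0.06 ± 0.32, and it turned below 0 under each of the 5 other scalings and sources of values tried.

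Cd3g, which encodes the gamma chain of the other CD3 dimer, was at 5.51, 5.39, 5.35, 5.84 and 5.46 in liver, at 5.01, 5.16, 4.96, 4.62 and 5.43 in lung, at 4.51, 3.67, 5.51, 3.96 and 5.49 in small intestine, and at 5.09, 5.04, 5.58, 5.20 and 5.36 in blood. Small intestine 3 and 5 lay within the blood range and the other 3 small intestine arrays below it. The log2 difference between small intestine and blood was -0.62 ± 0.31 (limma adjusted p = 0.161), and between small intestine and liver it was -0.88 ± 0.31 (limma adjusted p = 0.152). Lung was below liver on 5 of 5 slides, by -0.47 ± 0.31 (limma adjusted p = 0.377), and 1 lung array, lung 5, lay within the liver range.

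Cd247, which encodes the zeta chain with the largest number of activation motifs in the complex, could not be followed. Its probe was well above background on 1 of 20 arrays, lung 2, at a log2 level of -0.86. The signals listed for it ran between -3.37 and -1.54 in liver, -2.78 and -0.86 in lung, -3.29 and -1.60 in small intestine, and -3.22 and -1.34 in blood. It was not tested, and no fold is given. The transgenic receptor itself could not be followed either, since 0 of 5 genes of receptor constant chains had a named probe.

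The CD8 chains had the widest range between arrays among the 8 tested genes. Cd8b1, which encodes the beta chain of the CD8 heterodimer of conventional cytotoxic T cells, was at 4.44, 4.64, 4.76, 4.40 and 3.08 in liver and at 4.25, 3.20, 3.80, 2.40 and 3.13 in lung. In small intestine it was at 2.99, 1.74, 4.14, 0.77 and 3.84, and in blood at 3.77, 4.46, 4.45, 4.30 and 3.79. Small intestine 1, 2 and 4 and lung 2, 4 and 5 lay below every blood array, and liver 5 did too, whereas the other liver arrays lay within or above the blood range. The small intestine mean was 2.70 ± 1.43 (SD, n = 5), against 4.15 ± 0.35 in blood. The log2 difference was -1.46 ± 0.52 (SE, limma adjusted p = 0.0683), that is, 2.74-fold lower, with lower values in small intestine on 4 of 5 slides. The slide differences were -0.77, -2.72, -0.31, -3.54 and 0.05 on slides 1 to 5. Against liver the difference was -1.57 ± 0.52 (limma adjusted p = 0.146), and for lung against blood it was -0.80 ± 0.52 (limma adjusted p = 0.250).

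The call on Cd8b1 in small intestine depended on which arrays and genes entered. It passed without small intestine 3 (adjusted p = 0.0228), without small intestine 5 (adjusted p = 0.025), without both small intestine 5 and liver 5 (adjusted p = 0.0187), and when the test was limited to probes that all 20 arrays had well above background (adjusted p = 0.0499), all with limma. In that last test 14.3% of all genes were called. Without small intestine 3, 4 of the 8 genes were called lower than in blood, Cd3e, Cd3g, Cd8b1 and Lck, where 23.8% of all genes were called in either direction. Without small intestine 5, or without liver 5 and small intestine 5, the 2 called were Cd3g and Cd8b1. Of all genes 25.3% were called between small intestine and blood without small intestine 5, and 26.3% without both arrays. The same 2 genes were then called lower in small intestine than in liver (Cd3g, adjusted p = 0.0271, and Cd8b1, adjusted p = 0.0131, limma), where 16.3% of all genes were called.

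Cd8a, which encodes the alpha chain that occurs in the heterodimer and in the alpha-alpha form found on some intestinal lymphocytes, was at 4.59, 4.58, 4.58, 4.27 and 4.86 in liver, at 4.19, 3.80, 3.96, 2.88 and 3.87 in lung, at 3.74, 2.84, 4.90, 2.07 and 5.08 in small intestine, and at 3.93, 4.36, 5.04, 5.08 and 4.18 in blood. All 5 lung arrays lay below the lowest liver array. Cd8a was the only one of the 8 genes whose groups did not overlap in that comparison, in which the same held in that direction for 4.02% of all tested genes. The log2 difference of lung from liver was -0.84 ± 0.45 (limma adjusted p = 0.352), and lung was lower on 5 of 5 slides. Against blood the difference was -0.78 ± 0.45 (limma adjusted p = 0.206) in lung and -0.79 ± 0.45 (limma adjusted p = 0.215) in small intestine. Small intestine 4 and 2 held the lowest Cd8a values of the 20 arrays and small intestine 5 the highest, so the small intestine group spanned the whole range. With 1 array left out the difference between small intestine and blood lay between -1.13, without small intestine 5, and -0.38, without small intestine 4.

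The Cd8a probe was printed in 10 spots, which gives a measure of technical spread within an array. The SD over the spots had a median of 0.069 over the 20 arrays, and on 19 arrays it was at most 0.128. On blood 1 it was 0.729, since 1 spot read 1.86 and the other 9 read between 4.07 and 4.23. Blood 1 therefore stood at 3.93 as a mean of spots and at 4.15 as their median. With medians of spots on every array the difference of small intestine from blood was -0.83 and that of lung from blood -0.83, and the difference of small intestine from lung, -0.02 with means, was 0.00 with medians and just above 0. A second Cd8a probe was well above background on 0 of 20 arrays and entered only the alternative that averages all probes of a gene.

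**Figure D2:**
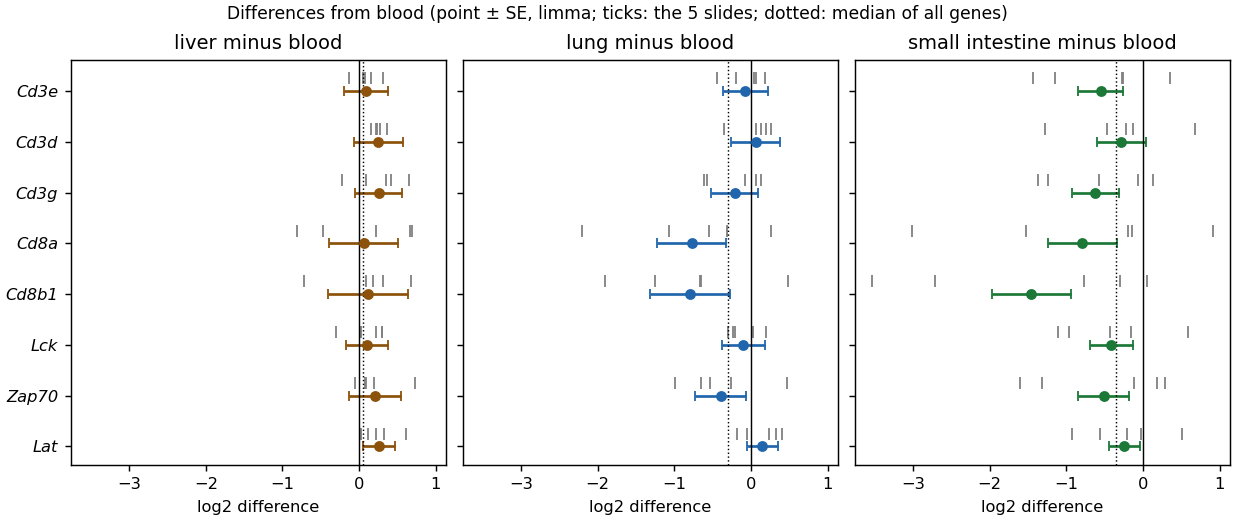
Log2 difference from blood (x axis) of the 8 tested genes in liver, lung and small intestine, with the limma SE as bars, the difference within each of the 5 slides as grey ticks and the median of all 8057 genes as a dotted line. Cd8b1 in small intestine lies furthest from 0, at -1.46, and its slide differences spread between -3.54 and 0.05.

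Lck, the Src family kinase that CD4 and CD8 carry, had the narrowest spread in blood, at 6.50, 6.55, 6.67, 6.50 and 6.60. In liver it was at 6.52, 6.24, 6.96, 6.79 and 6.82, in lung at 6.30, 6.25, 6.86, 6.27 and 6.62, and in small intestine at 6.08, 5.59, 7.25, 5.39 and 6.45. Of the small intestine arrays, 4 lay below the lowest blood array and small intestine 3 lay above the highest. The difference from blood was -0.41 ± 0.28 (limma adjusted p = 0.270) in small intestine, -0.10 ± 0.28 in lung and 0.10 ± 0.28 in liver.

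Zap70, the Syk family kinase that docks on the phosphorylated chains, was at 5.37, 5.27, 5.85, 5.80 and 5.63 in liver, at 5.11, 4.78, 5.11, 4.63 and 5.29 in lung, at 4.83, 4.01, 6.04, 4.02 and 5.43 in small intestine, and at 4.64, 5.33, 5.76, 5.61 and 5.55 in blood. Blood 1 was nearly as low as lung 4, and lung was below liver on 5 of 5 slides, by -0.60 ± 0.33 (limma adjusted p = 0.355). The difference from blood was -0.39 ± 0.33 (limma adjusted p = 0.368) in lung and -0.51 ± 0.33 (limma adjusted p = 0.258) in small intestine. A second, dimmer Zap70 probe, also well above background on all 20 arrays, differed from blood by -0.87 in lung and by -0.68 in small intestine, so both probes were below blood there and disagreed on the size and on which site was lower.

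Lat, the membrane adaptor that Zap70 phosphorylates, stood apart from the rest in its pattern. It was at 5.38, 5.15, 5.06, 5.01 and 5.58 in liver, at 5.09, 5.07, 5.05, 5.20 and 5.21 in lung, at 4.71, 4.21, 5.24, 4.78 and 4.76 in small intestine, and at 5.27, 5.13, 4.73, 4.80 and 4.97 in blood. Small intestine 4, the lowest array for 5 of the other 7 genes, lay inside the blood range for Lat. Liver exceeded blood on 5 of 5 slides, by 0.26 ± 0.20 (limma adjusted p = 0.997). The difference of small intestine was -0.24 ± 0.20 from blood (limma adjusted p = 0.352) and -0.50 ± 0.20 from liver (limma adjusted p = 0.183). The lung difference from blood was 0.14 ± 0.20, and it was below 0 under each of the 5 other scalings and sources of values.

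Over the 8 genes the median log2 difference from blood was 0.16 for the liver, -0.16 for the lung and -0.53 for the small intestine, against medians of 0.05, -0.30 and -0.36 over all tested genes. All 8 lay below blood in small intestine, as did 64.7% of all genes, 6 of 8 in lung (65.0% of all genes), and 0 of 8 in liver (44.4% of all genes). The liver differences were between 0.06 and 0.26, and those of Cd3e, Cd8a, Cd8b1 and Lck were below 0 when arrays were scaled on the probes detected on all 20 arrays. For lung against liver, small intestine against liver and small intestine against lung all 8 lay below 0, with medians of -0.34, -0.68 and -0.37, where the medians of all genes were -0.25, -0.34 and -0.15 and the shares below 0 were 66.0%, 68.3% and 66.6%. The differences of Cd8a and Zap70 between small intestine and lung, -0.02 and -0.12, were above 0 under 6 and 5 of the other settings that used all 20 arrays. Single arrays moved the differences between small intestine and blood. With 1 array left out that of Cd3e lay between -0.80 and -0.35, of Cd3d between -0.59 and -0.08, of Cd3g between -0.84 and -0.38, and of Cd8b1 between -1.82 and -0.97. That of Lck lay between -0.69 and -0.22, of Zap70 between -0.81 and -0.30, and of Lat between -0.37 and -0.11. Each of these 7 was furthest from 0 without small intestine 3, and nearest to 0 without small intestine 2 for Cd3g, Zap70 and Lat and without small intestine 4 for the other 4.

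The mean of the 8 genes served as 1 value per array. It was 5.49, 5.42, 5.72, 5.65 and 5.57 in liver 1 to 5, 5.24, 5.01, 5.37, 4.73 and 5.32 in lung 1 to 5, 4.77, 4.05, 5.86, 3.86 and 5.43 in small intestine 1 to 5, and 5.11, 5.35, 5.62, 5.51 and 5.42 in blood 1 to 5. Small intestine 4, small intestine 2 and lung 4 were the lowest of the 20 arrays, and small intestine 3 was the highest. The site means were 5.57 ± 0.12 in liver, 5.13 ± 0.27 in lung, 4.79 ± 0.86 in small intestine and 5.40 ± 0.19 in blood (SD, n = 5 each). The liver, lung and small intestine means differed from blood by 0.17, -0.27 and -0.61. With the dim Cd247 probe included they were 0.15, -0.15 and -0.51. No test was made of this mean, since its genes were chosen with results of these data known.

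On the arrays with the lowest means the genes were not lower by the same amount. Small intestine 4 was below blood 4, on the same slide, by -3.54 for Cd8b1, -3.01 for Cd8a, -1.60 for Zap70, -1.43 for Cd3e, -1.27 for Cd3d, -1.23 for Cd3g, -1.10 for Lck and -0.02 for Lat. On slide 2 the differences were -2.72 for Cd8b1, -1.52 for Cd8a, -1.37 for Cd3g, -1.31 for Zap70, -1.15 for Cd3e, -0.96 for Lck, -0.92 for Lat and -0.47 for Cd3d. On both slides the CD8 chains differed most. The 8 differences thus ran between -3.54 and -0.02 for small intestine 4 and between -2.72 and -0.47 on slide 2. Each is a difference between single arrays, so the scatter of the blood array enters it too. Blood 4, for example, had the highest Cd8a value of the blood arrays.

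The Cd8b1 signal less the Cd8a signal on the same array follows the 2 CD8 chains against each other. It was -0.15, 0.06, 0.18, 0.13 and -1.78 in liver, 0.06, -0.60, -0.17, -0.48 and -0.74 in lung, -0.74, -1.10, -0.76, -1.30 and -1.24 in small intestine, and -0.16, 0.10, -0.60, -0.77 and -0.39 in blood. The site means were -0.31 ± 0.83 in liver, -0.39 ± 0.33 in lung, -1.03 ± 0.26 in small intestine and -0.36 ± 0.35 in blood (SD, n = 5 each). Small intestine 5, which held the highest Cd8a value, and small intestine 4, which held the lowest, had nearly the same difference between the chains. The small intestine and blood groups overlapped at blood 4, and the difference between sites was not tested, since the pair was picked after its values were seen. Liver 5 was the lowest of all 20 arrays. The Lck signal less the Cd3e signal was by contrast within a range of 0.31 to 0.75 on all 20 arrays.

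**Figure D3:**
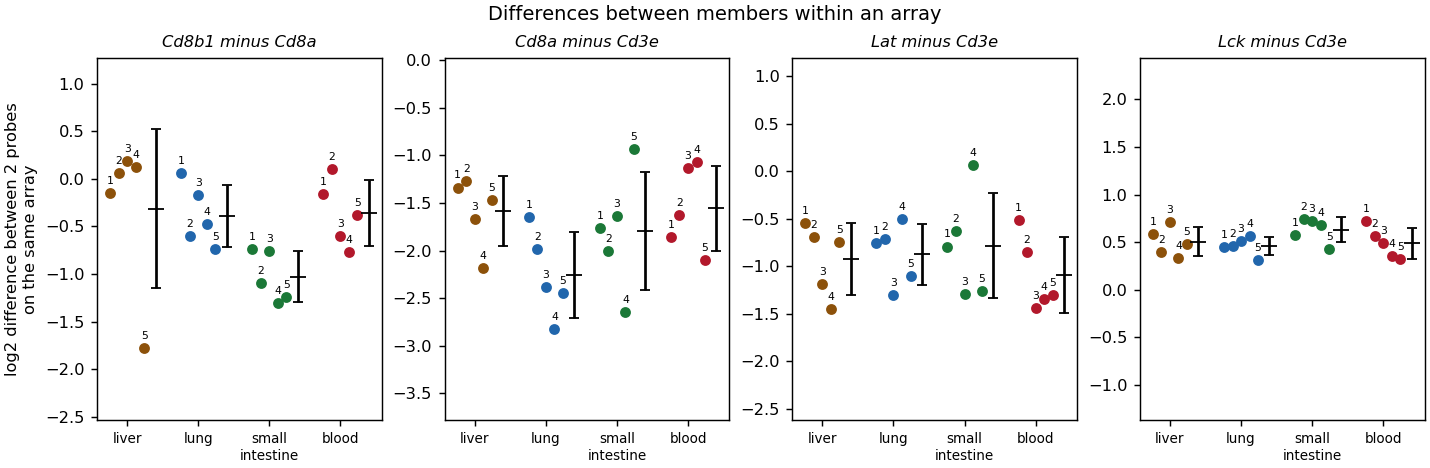
Log2 difference between the probes of 2 genes on the same array (y axis) by site (x axis), numbered by replicate, with the mean and SD of 5 arrays in black and the same log2 span in each panel. Cd8b1 less Cd8a lies between -1.30 and -0.74 on the small intestine arrays, and at -1.78 on liver 5, whereas Lck less Cd3e stays between 0.31 and 0.75.

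Across the 20 arrays the 8 genes were positively correlated in all 28 pairs, as a description of arrays that share slides, scaling and site. Pearson's r ran between 0.319 and 0.957, with a median of 0.79, and was over 0.7 in 20 pairs. The highest was for Cd3e and Lck. Lat had the lowest median r with the others, 0.458, and Cd3e the highest, 0.892. With the site means removed r ran between 0.092, for Cd8b1 and Lat, and 0.951. 

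**Figure D4:**
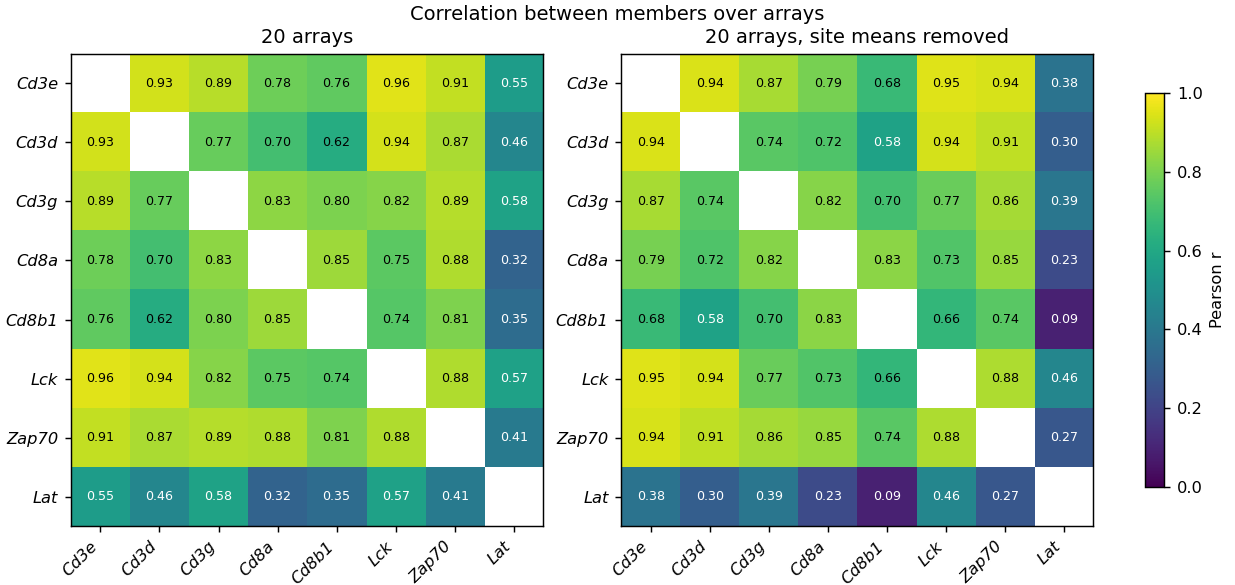
Pearson correlation between the log2 levels of each pair of the 8 tested genes (rows and columns) over 20 arrays, as measured (left) and with the site means removed (right). The row of Lat is the darkest in both panels, and Cd3e and Lck are at 0.957 and 0.951.

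Genes outside the set were ranked by their correlation with the mean of the 9 genes over the 20 arrays. Of 8048 genes the highest were Skap1 at r = 0.965, Capns1 at 0.958, Gimap4 at 0.951, Trmt112 at 0.949, Slc25a4 at 0.947 and Gtf2i at 0.943. Skap1 encodes an adaptor of T cell receptor signalling to integrins, and Gimap4 a GTPase of lymphocytes, whereas Capns1 encodes a calpain subunit, Slc25a4 a mitochondrial carrier and Gtf2i a transcription factor. With the dim Cd247 left out of the mean, the 6 highest were Skap1, Gimap4, Trmt112, Nmb, Ptprcap and Poldip3, at 0.967, 0.964, 0.962, 0.957, 0.955 and 0.950, and the 4 lowest were the same genes. The lowest were Spdef at -0.889, Guca2a at -0.883, Rab15 at -0.878 and Pip4p2 at -0.875. Spdef, a transcription factor of goblet and Paneth cells, and Guca2a, the gut peptide guanylin, are genes of the intestinal epithelium. Over all genes the median r was 0.416, and 23.5% exceeded 0.7. With site means removed Skap1 stayed first, at 0.961, with Capns1, Batf, Trmt112, Ngdn and Dctn5 after it, and the lowest were Pip4p2, Guca2a, Spdef and Noxo1.

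Of 34 other genes of proximal receptor signalling, 26 were tested, and 4 were called lower in small intestine than in blood and 0 higher, against 9.92% of all genes called lower there. They were Ptpn6, the phosphatase SHP-1, Csk, the kinase that holds Lck inactive, Ubash3b, a phosphatase that acts on Zap70, and Sh2d1a, the adaptor SAP of the SLAM receptors. Ptpn6 averaged 3.49 ± 0.61 in small intestine and 5.03 ± 0.24 in blood (SD, n = 5 each), a log2 difference of -1.54 ± 0.29 (SE, limma adjusted p = 0.0155). The difference was -1.39 ± 0.43 for Csk (limma adjusted p = 0.0433), -0.98 ± 0.29 for Ubash3b (limma adjusted p = 0.0378) and -1.48 ± 0.46 for Sh2d1a (limma adjusted p = 0.0454). The median difference of the 26 was -0.66 in small intestine, -0.58 in lung and 0.06 in liver. Over all genes it was -0.36, -0.30 and 0.05. In small intestine 22 of the 26 lay below 0, as did 64.7% of all genes. In lung 0 of the 26 were called (0.819% of all genes), and in liver 0 (0%). Without lung 1, 1 was called in lung, where 846 of all 8057 genes were called.

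The count of 4 changed with single arrays, as did the share of all genes called between small intestine and blood. Leaving out small intestine 2 gave 0 (0% of all genes), leaving out small intestine 1 gave 1 (4.57%), leaving out small intestine 4 gave 1 (3.24%), and leaving out small intestine 3 gave 9 (23.8%). Leaving out small intestine 5 gave 11 (25.3%), and leaving out both liver 5 and small intestine 5 gave 12 (26.3%). It was 1 without blood 2, 3, 4 or 5, where 2.04% to 6.11% of all genes were called, 2 without liver 1, 2 or 3 or lung 2 (8.01% to 9.69%), 6 without liver 5 (13.3%) and 7 without lung 4 (14.8%). With arrays scaled on the probes that all 20 arrays detected the count was 0, and 0.236% of all genes were then called between these sites in either direction. It was 1 with scaling on the median (6.17%), 2 with quantile normalization and in the deposited table (6.14% each) and 2 with no filter on dim probes (1.22%). In the fit of the 2 sites, whose count over all genes is given further on, it was 1. It stayed at 4 with normexp (9.63%), with the slide as a block (14.4%) and with the mean of all probes of a gene (9.79%). Of the genes not called, Sla2, Was, Dok2 and Prkcq had the lowest F-test p. Sla2, an adaptor that dampens receptor signalling, differed by -1.66 ± 0.55 in lung (limma adjusted p = 0.124) and -0.80 ± 0.55 in small intestine (limma adjusted p = 0.272) against blood. Prkcq, the kinase PKC-theta of the synapse, differed by -1.06 ± 0.45 in lung (limma adjusted p = 0.129) and -1.35 ± 0.45 in small intestine (limma adjusted p = 0.0561).

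Of 18 other T cell surface genes 14 were tested. Against blood 0 were called at any organ, where 10.8% of all genes were called in small intestine, 0.819% in lung and 0% in liver. All 14 lay below blood in small intestine (64.7% of all genes), with a median of -0.74 (-0.36 over all genes). In lung 10 of 14 lay below it (65.0%), with a median of -0.45 (-0.30). In liver 3 of 14 did (44.4%), with a median of 0.15 (0.05). Sit1, an adaptor that interacts with SHP-2, Slamf6, Cd48 and Cd27 had the lowest F-test p. Slamf6, a SLAM receptor, differed from blood by -2.0 ± 0.87 in lung (limma adjusted p = 0.132) and by -1.35 ± 0.87 in small intestine (limma adjusted p = 0.257), and Cd27, a co-stimulatory receptor, by -1.17 ± 0.44 in small intestine (limma adjusted p = 0.0807). Without small intestine 3 there were 5 called lower in small intestine (23.8% of all genes called), without small intestine 5 there were 4 (25.3%), and without both liver 5 and small intestine 5 there were 5 (26.3%). With the slide as a block there was 1 (14.4%), and with the mean of all probes of a gene there was 1 (9.79%).

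Markers of some other cells were high on some of the arrays where these levels were low. Of 5 Paneth cell markers (Defa3, Defa23, Defa29, Lyz1 and Ang4), 4 passed the filter. The mean log2 level of all 5, passed or not, was 4.58, 5.62, 1.51, 6.38 and -3.03 in small intestine 1 to 5. It ran between -2.23 and 3.08 in liver, where liver 5 was the highest, between -1.34 and 0.61 in lung, and between -2.70 and -1.47 in blood. Of 5 markers of the intestinal epithelium (Epcam, Vil1, Lgals4, Fabp2 and Cdh17), 1 passed the filter, and Cdh17 was well above background on 0 of 20 arrays. The mean of all 5, passed or not, was -0.74, 1.39, -1.84, 2.00 and -2.93 in small intestine 1 to 5. It lay between -2.58 and -1.48 in liver, -2.32 and -1.42 in lung, and -3.02 and -1.48 in blood. Small intestine 2 and 4, the lowest arrays for the mean of the 8 genes, were thus the highest for both lists, and small intestine 5 was the lowest of its site for both. Other arrays did not follow this order. Small intestine 3, at 1.51 for Paneth cell markers, had the highest mean of the 8 genes, 5.86, against 5.43 on small intestine 5. Liver 5, at 3.08 for those markers, had a mean of the 8 genes of 5.57, inside the liver range of 5.42 to 5.72. The mean of 3 plasma cell markers (Jchain, Tnfrsf17 and Derl3), of which 2 passed the filter, was 2.64, 2.45, 1.20, 1.09 and -2.67 in small intestine 1 to 5. In liver 1 to 5 it was -2.13, -2.10, -1.82, -2.19 and 1.50. Why liver 5 and small intestine 5 differed from their sites was not tested.

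Of 7 alveolar macrophage markers, 6 passed the filter. The mean of all 7, passed or not, was 3.31, 2.79, -2.21, 5.72 and 4.73 in lung 1 to 5. It lay between -2.98 and -0.57 in small intestine, -3.08 and -2.18 in liver, and -3.60 and -1.85 in blood. Lung 4 was the highest for these markers and the lowest lung array for the mean of the 8 genes, and lung 3, the array with low macrophage markers, was the highest. The remaining lung arrays did not follow that order. Lung 5, at 4.73 for these markers, had a mean of the 8 genes of 5.32, close to the 5.37 of lung 3. Lung 1, at 3.31, had 5.24, and lung 2, at 2.79, had 5.01. Over 20 arrays r with the mean of the 8 genes was -0.883 for intestinal epithelium, -0.749 for Paneth cells, -0.677 for monocytes and macrophages, of whose 5 markers 1 (Cd14) passed the filter, and -0.341 for alveolar macrophages. For CD4 T cells, of whose markers Cd4, Cd40lg and Foxp3 all 3 passed the filter, r was -0.473. The 3 lists with 0 genes past the filter also gave values below 0, -0.554 for hepatocytes, -0.547 for fibroblasts and -0.424 for red cells. The values nearest 0 were -0.051 for natural killer cells, 0.107 for neutrophils and 0.124 for gamma delta T cells. Of their markers with a probe, 3 of 5, 3 of 4 and 1 of 3 passed the filter. Markers within a list differed. Of the natural killer list Ncr1 was well above background on 0 of 20 arrays and Fcer1g on 18. Of the neutrophil list S100a8 was on 9 and Csf3r on 20. None of the hepatocyte markers passed the filter. Alb and Ttr were well above background on 0 of 20 arrays, Cyp2e1 on 1, Fgb on 2 and Apoa1 on 6. Among B cell markers Cd79a, Ms4a1 and Pax5 were well above background on 0 of 20 arrays, whereas Cd79b was on 20 of 20, at levels between 0.17 and 2.41, and r for the list was -0.422. The part of these cells in the differences of the 8 genes was not tested.

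**Figure D5:**
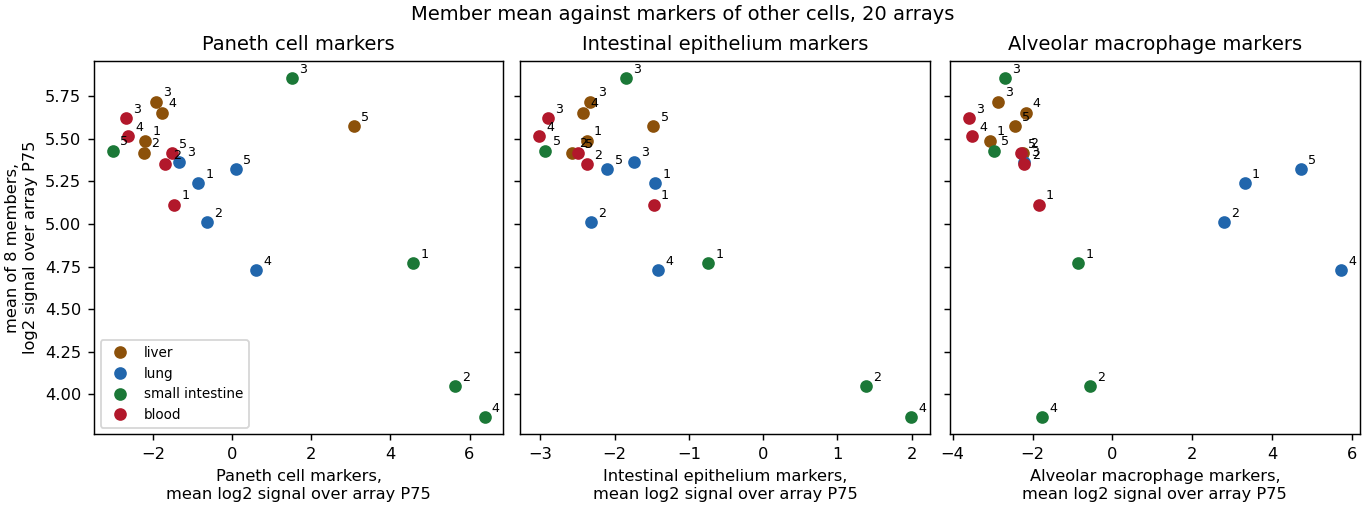
Mean log2 level of the 8 tested genes (y axis) against the mean log2 level of Paneth cell, intestinal epithelium and alveolar macrophage markers (x axes) on 20 arrays, coloured by site and numbered by replicate. Small intestine 2 and 4 combine the lowest mean of the 8 genes, 4.05 and 3.86, with the highest epithelial marker means, 1.39 and 2.00.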

How the data were processed

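Each scanner file gives 44397 spots, 1377 of them controls, with a processed signal that is an intensity on a linear scale with background removed, made by the authors. The file headers name Feature Extraction 11.0.1.1 as its source. Version 10.7 and Partek are named in the submitters' processing notes. RNA went through 2 rounds of amplification and was labelled with Cy3, per the labels' protocols. The authors' deposited table holds log2 values and differs from quantile-normalized log2 processed signal by a median of 0.000108.

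The log2 signal of each spot was set against its array's 75th percentile, without controls and without 24 spots marked non-uniform, and spots of 1 probe were averaged. Accessions were matched to the RefSeq gene table of GRCm38.p6, which named 27508 probes over 20886 genes. Coordinates of the array design, which has another build, were not used. The brightest probe stood for a gene, and a gene entered the test if at least 1 site had its probe well above background on 4 or more of 5 arrays. The test was limma 3.58.1 under R 4.3.3, two-sided, with a coefficient per site, 16 residual degrees of freedom and Benjamini-Hochberg adjustment, and samples were grouped by the site in the labels.

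The members, the gene lists and the rule for named genes (list genes called against blood, the 4 with the lowest F-test p of each list, and the 6 highest and 4 lowest correlations) were chosen with earlier results of these data known. The normexp alternative used the median signal. In simulated data for small intestine against blood with 8057 genes, 79% of 100 genes with a log2 change of 2 and 23% of 100 with a log2 change of 1 were recovered. The simulated noise was independent between genes and between arrays, with 1 SD per gene for all 4 sites. It lacked the wider scatter of small intestine, the correlation between genes and the shared slides, so recovery in the real data may differ. Arrays with the same number share a slide. Deviations from the site means had a median correlation of 0.156 between arrays of the same number and different sites. Between arrays of other numbers it was -0.052. Of 30 same-number pairs, 18 were correlated above 0.1. The main fit nevertheless left the slide out, and the fit with the slide as a block is given as an alternative. The highest correlation between 2 arrays was 0.976. Alternatives were other scalings, normexp, filters, probes and variance models, the slide as a block, fits of 2 sites, the deposited table, and arrays left out. Figures were drawn with matplotlib 3.10.9.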

Additional observations from a re-analysis of the deposited data

Results flagged for a closer look

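In 36 groups, those of the 8 tested genes and of their mean at the 4 sites, the highest and lowest of 5 arrays were checked with Dixon's 95% critical value of 0.71, which chance passes in about 1 of 20 groups. One value passed. Cd8b1 on liver 5 was at 3.08, below the other 4 liver arrays, which lay between 4.40 and 4.76. Cd8a on the same array was the highest of the liver group, at 4.86, and the array's Paneth cell marker mean was 3.08, against -2.23 to -1.79 on the other 4.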

How the results depend on the processing

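None of the 8 tested genes was called in liver against blood, lung against blood, lung against liver or small intestine against lung under any alternative run. For small intestine against blood the count was 1 with only probes well above background on all 20 arrays (14.3% of all genes called). It was 2 without liver 5 and small intestine 5 (26.3%). With 1 array left out it ran between 0 and 4, the highest without small intestine 3 (23.8%). For small intestine against liver it was 2 without liver 5 and small intestine 5 (16.3%), and between 0 and 2 with 1 array left out. The F-test called 1 of the 8 genes without liver 5 and small intestine 5, against 18.8% of all genes. With the replicate block, which is also the slide, 0 of the 8 were called, so it changed none of their calls, while 1 of the 14 other T cell surface genes was called between small intestine and blood, and Cd8b1 in small intestine against blood had an adjusted p of 0.055 (limma). That fit called 1163 of 8057 genes there, and 873 were called without the block. Of all 8057 genes, 19 were called between small intestine and blood (15 lower) with arrays scaled on the probes detected on all 20, 495 with quantile normalization and in the deposited table, 497 with scaling on the median, 327 in the fit of the 2 sites and 2119 without liver 5 and small intestine 5, against 873 (799 lower), and with no filter on dim probes 254 of 20886. With 1 array left out it ran between 0, without small intestine 2, and 2037, without small intestine 5. Between lung and blood, against 66, the count was 0 when the test was limited to probes all arrays detected and 175 without liver 5 and small intestine 5, and with 1 array left out it ran between 16, without blood 3, and 846, without lung 1.

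The mean of the 9 genes in liver against blood, 0.147, was -0.0371 with arrays scaled on the probes detected on all 20 arrays, -0.0128 with quantile normalization, 0.0225 with normexp and -0.0151 in the deposited table. Lung against blood, -0.152, was -0.334 with scaling on those probes, -0.502 with scaling on the median and -0.448 with normexp. Lung against liver, -0.298, was -0.72 with scaling on the median, -0.471 with normexp and -0.437 without Cd247, an alternative chosen after seeing the data. With 1 array left out the mean of the 9 in small intestine against blood ran between -0.758 and -0.305. Scaling on the probes detected on all 20 arrays moved the median difference of all genes from blood to -0.13, -0.48 and -0.32 for the liver, lung and small intestine.

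Some values near 0, none of them called, changed sign. In liver against blood and in the order scaling on detected probes, quantile normalization, normexp and the deposited table, Cd3e was -0.0945, -0.115, -0.112 and -0.115, Lck was -0.0818, -0.129, -0.0608 and -0.129, and Cd8a was -0.124, -0.0589, -0.111 and -0.0809. Cd8a was also -0.343 with the mean of its 2 probes, of which 1 was well above background on 0 of 20 arrays. That dim probe alone differed by -0.746. Without liver 5 and small intestine 5 Cd8a was -0.0113. Cd8b1 was -0.073 with scaling on detected probes and -0.0214 with normexp. In lung against blood and in the order scaling on detected probes, quantile normalization, scaling on the median, normexp and the deposited table, Cd3d was -0.123, -0.0721, -0.292, -0.211 and -0.0724, and Lat was -0.0386, -0.0513, -0.207, -0.107 and -0.0515. In small intestine against lung and in the same order Cd8a was 0.207, 0.159, 0.101, 0.109 and 0.159, and it was 0.00153 with the median of its spots, also chosen after seeing the data. Zap70 there was 0.105 with scaling on detected probes, 0.065 with quantile normalization, 0.00057 with normexp, 0.0656 in the deposited table and 0.0347 with the mean of its probes.

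With 1 array left out, Cd3e in lung against blood ran between -0.163 and 0.000341, Cd3d in lung against blood between -0.0564 and 0.144, Cd8a in liver against blood between -0.0869 and 0.200, Cd8a in small intestine against lung between -0.356 and 0.398, Cd8b1 in liver against blood between -0.0132 and 0.407, and Zap70 in small intestine against lung between -0.412 and 0.0947. The cause of these changes was not tested. A fit of 2 sites gives no F-test over 4. Cd247 was well above background on 1 of 20 arrays, so no difference between sites can be given for it.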
